A study of Mus musculus with 8 samples.

Results

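Complex I is the respiratory chain enzyme that oxidises NADH, and 35 of its subunits that are encoded in the nucleus were examined here. They were chosen by name from a list, 6 of them core subunits and 29 accessory ones, and each was read from array probes that carry a RefSeq transcript of the gene. All 35 genes had such a probe that was well above background on all 8 arrays, and they are 35 of the 23105 features tested. RNA came from growth plate cartilage of the femur of 12-day-old littermate mice, 4 labelled CreTW and 4 labelled Cre, with 100 ng of RNA from 1 mouse on each 1-colour Agilent array. Neither genotype name is explained in the labels. From general knowledge of this mouse model, TW stands for a dominant mutant of Twinkle, a helicase needed to copy mitochondrial DNA, which CreTW mice express in cartilage once Cre has acted, whereas Cre mice express the recombinase alone. Both genotypes therefore share Cre, whose promoter is not given in the sources used here. The study asks how a disabled respiratory chain affects cartilage and growth.

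Complex I sits in the inner mitochondrial membrane and is shaped like an L. Its arm in the matrix takes electrons from NADH at a flavin (the N module) and passes them along iron-sulfur clusters to ubiquinone (the Q module), and its arm in the membrane pumps protons. The core subunits carry out this chemistry and are conserved from bacteria, with those of the matrix arm encoded in the nucleus and those of the membrane arm in mitochondrial DNA. The accessory subunits surround the core and are needed for assembly and stability. Transcripts of the subunits encoded in mitochondrial DNA were not analysed here. Chondrocytes of the growth plate are known for relying strongly on glycolysis.

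Levels are log2 processed intensity after division by the 75th percentile of that array, and differences are CreTW minus Cre on that scale. A level belongs to its own probe and is not set against that of another gene. The arrays had between 45.4% and 57.9% of the 56605 probes well above background, and no spot was saturated. All 16 chondrocyte markers, among them Col2a1 and Acan, were well above background on every array of both genotypes, as were all 8 markers of hypertrophic chondrocytes. Of 20 skeletal muscle markers, 17 had an unadjusted limma p under 0.05, against 10.7% of all features. All 17 had a positive difference, and 0 were called after adjustment. The mean centred log2 level of the 20 markers was -1.29, 3.31, 2.80 and 1.86 on CreTW arrays 1 to 4, against -2.08, -2.73, 0.31 and -2.17 on Cre arrays 1 to 4. Of these 20 markers, 14 were well above background on all CreTW arrays and 8 on all Cre arrays, and 0 were below background on every array. In these bulk samples fewer cells of a type and less RNA per cell cannot be told apart.

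None of the 35 subunits passed the test between CreTW and Cre cartilage, limma with Benjamini-Hochberg adjustment over all features at 0.05, which 0.346% of the 23105 features passed (0.229% higher and 0.117% lower in CreTW). The lowest adjusted p of a subunit was 0.293. Without adjustment 2 subunits had p under 0.05, Ndufb11 with a positive and Ndufab1 with a negative difference, against 10.7% of all features. The median difference of the subunits was 0.02, and that of all features was -0.01. Differences were positive for 24 subunits and negative for 11, and 48.4% of all features had a positive one. They ran from -0.39 for Ndufab1 to 0.18 for Ndufb11, and 34 of the 35 were smaller than 0.2 in either direction, against 68.8% of all features. That share was not matched for signal or for the spread between arrays.

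The precision of these measurements limits how large an undetected difference could be. Apart from Ndufab1, whose 95% interval was -0.66 to -0.12, every interval lay between -0.40 and 0.38, which is from 0.758-fold to 1.30-fold. The interval included 0 for 33 of the 35, the exceptions being Ndufab1 and Ndufb11. The pooled SD between arrays of 1 genotype had a median of 0.09 over the subunits, with a range of 0.03 to 0.16, and a median of 0.19 over all features. All 35 subunits had an SD below that median of all features. This comparison was not matched for signal.

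**Figure D1:**
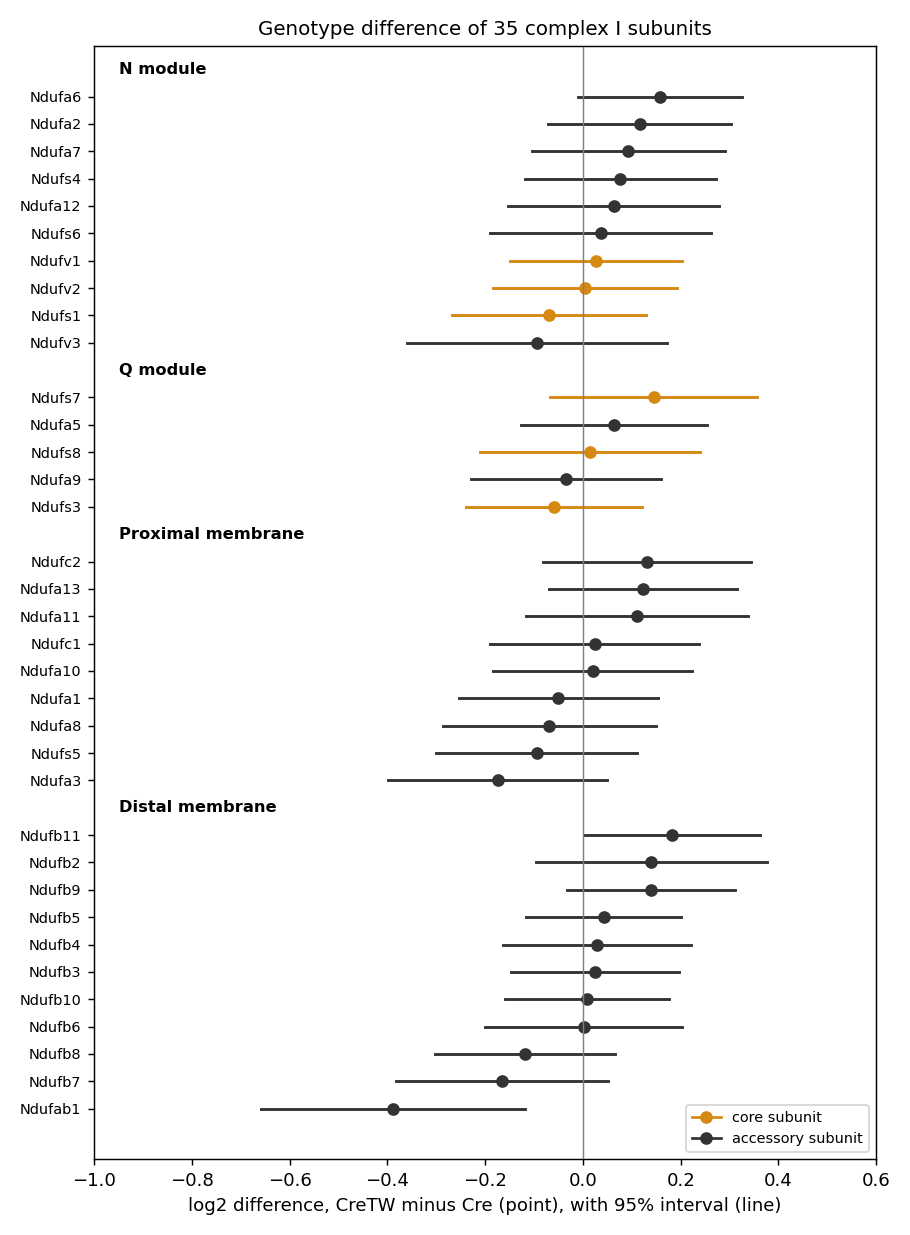
Difference between CreTW and Cre cartilage (log2, point) with its 95% interval from limma (line) for each of 35 complex I subunits, grouped by module, core subunits in orange and accessory ones in black, n = 4 arrays per genotype. The intervals of Ndufab1 (-0.66 to -0.12) and Ndufb11 (0.0018 to 0.36) leave out 0, and the other 33 include it.

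The promoters of the subunits were examined for shared letters, and no link to a measured change was tested. RefSeq promoters of the GRCm38.p6 build, from 250 bases before to 50 after the transcript's start, were at hand for 32 of the 35 genes (34 promoters). Their median GC content was 59.2%, against 52.7% of all 32851 promoters. A long form of the YY1 motif, searched on both strands as were the others, was in 4 of the 34 (11.8%), against 0.633% of all, and its shorter form AAGATGGC, which the longer contains, was in 7 (20.6%), against 2.75%. Other motifs were in 2 for NRF1 (a consensus form and its shifted variant, 5.88% against 1.35%), 4 for ETS factors (CCGGAAG, 11.8% against 8.86%) and 3 for CRE (TGACGTCA, 8.82% against 1.79%). A match is a description of letters and not a site.

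The 4 matches to the longer YY1 motif are shown because they fell alike, on the gene's own strand and 25 to 36 bases into the transcript. Each is 30 bases long, written 5′ to 3′ on the strand of the gene with the motif in capitals, and each motif contains the letters ATG. Ndufa9 is at chr6:126849095-126849124 (minus strand), Ndufs4 at chr13:114388045-114388074 (minus), Ndufs6 at chr13:73328433-73328462 (minus) and Ndufs7 at chr10:80249464-80249493 (plus). The genotype differences of these genes were -0.04, 0.08, 0.04 and 0.14 in that order.
Ndufa9: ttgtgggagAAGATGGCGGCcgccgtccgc
Ndufs4: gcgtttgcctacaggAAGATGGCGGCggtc
Ndufs6: aagggtcaccggcAAGATGGCGGCggtgct
Ndufs7: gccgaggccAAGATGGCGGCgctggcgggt

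The 250 bases before the start of Ndufab1 (chr7:122101849-122102098, minus strand) and of Ndufb11 (chrX:20617620-20617869, minus strand) are shown because these genes had the lowest and the highest difference. Capitals mark the CCAAT box on either strand, a motif chosen after these sequences were seen. Ndufb11 held 4, a count of at least 4 being found in 0.840% of all promoters, and Ndufab1 held 0, as did 66.2% of all. At least 1 was in 10 of the 34 promoters of subunits (29.4%), against 33.8% of all. Neither gene's difference passed the test, and a relation between these boxes and the differences was not tested.
Ndufab1: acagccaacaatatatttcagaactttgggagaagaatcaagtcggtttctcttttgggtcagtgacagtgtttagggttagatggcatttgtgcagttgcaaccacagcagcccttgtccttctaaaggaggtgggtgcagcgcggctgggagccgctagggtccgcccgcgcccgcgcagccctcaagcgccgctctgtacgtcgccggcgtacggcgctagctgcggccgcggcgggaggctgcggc
Ndufb11: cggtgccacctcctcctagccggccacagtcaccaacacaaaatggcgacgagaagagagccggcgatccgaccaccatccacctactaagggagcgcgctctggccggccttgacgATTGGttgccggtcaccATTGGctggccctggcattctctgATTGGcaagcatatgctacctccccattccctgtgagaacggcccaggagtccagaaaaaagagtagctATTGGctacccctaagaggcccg

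The core subunits carry the flavin and the iron-sulfur clusters. Ndufv1, which binds the flavin and takes the electrons from NADH, had levels of 4.72, 4.77, 4.72 and 4.81 in CreTW cartilage, against 4.83, 4.76, 4.66 and 4.67 in Cre cartilage. Its difference was 0.03 ± 0.08 (SE, 95% interval -0.15 to 0.20, limma adjusted p = 0.925). The 4 CreTW values lay within the range of the Cre values.

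Ndufv2, which holds an iron-sulfur cluster beside the flavin, had levels of 4.17, 4.07, 4.25 and 4.14 in CreTW cartilage, against 4.28, 4.17, 4.10 and 4.08 in Cre cartilage, and the difference was 0.0048 ± 0.08 (SE, 95% interval -0.18 to 0.19, limma adjusted p = 0.988). Ndufs1, the largest subunit of the complex and the carrier of several clusters, had levels of 3.46, 3.28, 3.26 and 3.31 in CreTW cartilage, against 3.40, 3.48, 3.44 and 3.26 in Cre cartilage. The Ndufs1 difference was -0.07 ± 0.09 (SE, 95% interval -0.27 to 0.13, limma adjusted p = 0.796). For both genes the values of the genotypes overlapped, and Ndufs1 on CreTW array 1 was above 3 of the 4 Cre arrays.

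In the Q module, Ndufs3, a structural core subunit of the matrix arm, had levels of 4.83, 4.74, 4.73 and 4.77 in CreTW cartilage, against 4.85, 4.85, 4.70 and 4.91 in Cre cartilage, with a difference of -0.06 ± 0.08 (SE, 95% interval -0.24 to 0.12, limma adjusted p = 0.809). Ndufs8, which carries a pair of clusters on the path to ubiquinone, had levels of 4.89, 4.70, 4.66 and 4.83 in CreTW cartilage, against 4.73, 4.91, 4.59 and 4.79 in Cre cartilage, with a difference of 0.01 ± 0.10 (SE, 95% interval -0.21 to 0.24, limma adjusted p = 0.971). Neither gene separated the genotypes, and both had their lowest value on Cre array 3.

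Ndufs7 holds the last cluster before ubiquinone and had the largest difference of the 6 core subunits. Its levels were 4.69, 4.63, 4.60 and 4.78 in CreTW cartilage, against 4.68, 4.59, 4.42 and 4.42 in Cre cartilage. The difference was 0.14 ± 0.09 (SE, 95% interval -0.07 to 0.36, limma adjusted p = 0.613). Cre arrays 2, 3 and 4 lay below all CreTW arrays, array 2 narrowly, whereas Cre array 1 lay above 2 CreTW arrays. Slide rows were inferred from a digit of the barcode in the file headers, and each held 2 arrays of either genotype. Row 1 held replicates 1 and 2 and row 2 held replicates 3 and 4, so row and replicate order cannot be told apart. The Ndufs7 difference was 0.02 in row 1 and 0.27 in row 2.

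The median difference was 0.01 over the 6 core subunits and 0.03 over the 29 accessory subunits. Per array, the mean centred log2 level of the core minus that of the accessory subunits was 0.0037, -0.0067, -0.0066 and 0.0034 on CreTW arrays 1 to 4, against 0.04, -0.01, 0.03 and -0.05 on Cre arrays 1 to 4. The CreTW values lay inside the range of the Cre values. The CreTW mean minus the Cre mean was -0.0031, with an SD between arrays of 0.0059 in CreTW cartilage and 0.04 in Cre cartilage. No test over the members was made.

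Of the 7 accessory subunits of the N module, 6 had positive differences, and 0 passed the test. Ndufa6 is a protein of the LYR family, named for a short motif, and had levels of 5.12, 5.06, 5.09 and 5.09 in CreTW cartilage, against 5.004, 4.96, 4.84 and 4.92 in Cre cartilage. All 4 CreTW values lay above all 4 Cre values. The difference was 0.16 ± 0.07 (SE, 95% interval -0.01 to 0.33, limma adjusted p = 0.490), 11.6% above Cre by the point estimate, which did not pass the test.

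Of the other accessory subunits of this module, Ndufa2, which has a thioredoxin-like fold, was at 0.12, Ndufa7 at 0.09 and Ndufa12, a relative of the assembly factor Ndufaf2, at 0.06. Ndufs4, whose loss in mice gives a disease like Leigh syndrome, was at 0.08, and Ndufs6, which binds zinc, was at 0.04. Ndufv3, known for tissue-specific isoforms, was at -0.09. All 6 had overlapping genotypes, and their limma adjusted p-values were between 0.638 and 0.922. In the Q module the accessory subunits Ndufa5 and Ndufa9 (a relative of short-chain dehydrogenases) were at 0.06 and -0.04. The 5 Q-module genes had a median difference of 0.01, and the 10 N-module genes one of 0.05.

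The proximal part of the membrane arm held 9 accessory subunits here, 5 with positive and 4 with negative differences and a median of 0.02. Ndufa3, a small membrane subunit, had the second lowest difference of all 35. Its levels were 5.50, 5.37, 5.31 and 5.47 in CreTW cartilage, against 5.67, 5.75, 5.46 and 5.46 in Cre cartilage. CreTW values were the lower ones on average but overlapped the Cre values, with a difference of -0.17 ± 0.10 (SE, 95% interval -0.40 to 0.05, limma adjusted p = 0.568). Ndufa3 had a second probe, which gave -0.08.

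Ndufc2, one of the subunits next to the membrane core, was at 0.13, Ndufa13, also known as GRIM-19, at 0.12, and Ndufa11 at 0.11. Ndufc1 was at 0.02 and Ndufa10, a relative of nucleoside kinases, at 0.02. The X-linked Ndufa1 was at -0.05. Ndufa8 and Ndufs5, proteins with twin cysteine motifs that face the intermembrane space, were at -0.07 and -0.09. None of the 9 separated the genotypes.

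The distal part of the membrane arm, to which Ndufab1 was assigned here, held the highest and the lowest differences of the list. Ndufb11, X-linked in mouse, had levels of 5.60, 5.62, 5.61 and 5.51 in CreTW cartilage, against 5.41, 5.40, 5.29 and 5.51 in Cre cartilage. All CreTW values were above all Cre values, although CreTW array 4 and Cre array 4 were both at 5.51 after rounding. The difference was 0.18 ± 0.08 (SE, 95% interval 0.0018 to 0.36, limma adjusted p = 0.458).

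Ndufb9, another LYR protein, had levels of 5.17, 5.07, 5.07 and 5.17 in CreTW cartilage, against 5.03, 5.002, 4.89 and 4.996 in Cre cartilage. Its genotypes did not overlap, and the difference was 0.14 ± 0.08 (SE, 95% interval -0.03 to 0.31, limma adjusted p = 0.557). Ndufb2, a small membrane subunit, had levels of 4.38, 4.27, 4.07 and 4.29 in CreTW cartilage, against 4.06, 4.21, 3.94 and 4.23 in Cre cartilage. The genotypes overlapped for Ndufb2, with a difference of 0.14 ± 0.10 (SE, 95% interval -0.10 to 0.38, limma adjusted p = 0.651).

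Ndufab1 is the mitochondrial acyl carrier protein, which holds the growing chain in mitochondrial fatty acid synthesis and is also a subunit of complex I. Its levels were -0.20, -0.29, -0.04 and -0.01 in CreTW cartilage, against 0.14, 0.54, 0.19 and 0.15 in Cre cartilage. All CreTW values lay below all Cre values, and Cre array 2 stood above the other 3. The difference was -0.39 ± 0.12 (SE, 95% interval -0.66 to -0.12, limma adjusted p = 0.293), 0.763-fold by the point estimate, which did not pass the test. It was -0.29 without Cre array 2, -0.59 within slide row 1 and -0.19 within row 2.

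Groups that did not overlap were found for 4 of the 35 subunits (11.4%), against 6.70% of all features, and none of the 4 passed the test. Higher in CreTW were Ndufb11, Ndufa6 and Ndufb9, 3 of 35 against 3.89% of all features, and lower was Ndufab1, 1 of 35 against 2.81%.

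**Figure D2:**
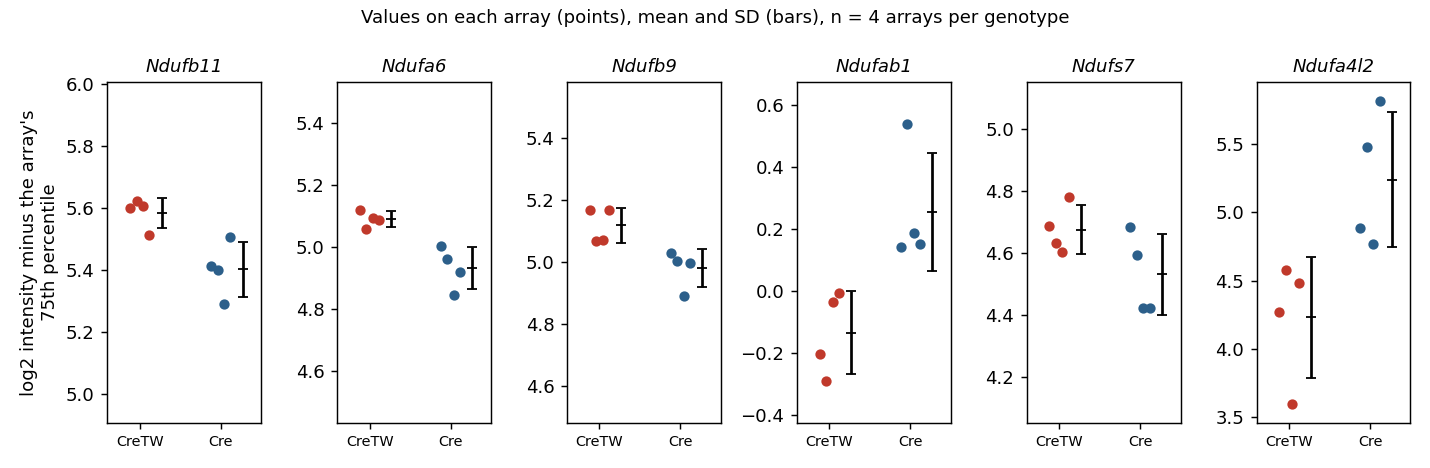
Levels of 5 subunits and of Ndufa4l2 on each array (log2 intensity minus the array's 75th percentile), CreTW in red and Cre in blue, with the mean and SD as bars, n = 4 arrays per genotype. The axis spans the same log2 range for the 5 subunits and a wider one for Ndufa4l2. Ndufb11, Ndufa6, Ndufb9 and Ndufab1 do not overlap between genotypes, and Ndufs7, the core subunit with the largest difference, does.

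Ndufb7, a twin-cysteine subunit facing the intermembrane space, had levels of 5.30, 5.18, 5.01 and 5.25 in CreTW cartilage, against 5.42, 5.40, 5.21 and 5.37 in Cre cartilage. The difference was -0.17 ± 0.10 (SE, 95% interval -0.38 to 0.05, limma adjusted p = 0.574), with overlapping genotypes. Ndufb8 was at -0.12, Ndufb5 at 0.04, Ndufb4 at 0.03 and Ndufb3 at 0.02. Ndufb10 and Ndufb6 had the smallest differences of this module, 0.01 and 0.0017. The median over its 11 genes was 0.02.

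Of the 41 probes matched to the 35 genes, 40 were kept, and 5 genes had 2 kept probes. The probe left out was for a noncoding transcript of Ndufa7 and was above background on 0 arrays. The probes of 1 of these genes, Ndufv1, differed in sign, at 0.03 and -0.09. Ndufab1, Ndufs5, Ndufb4, Ndufs6, Ndufa12 and Ndufa11 have a gene copy or pseudogene of a related name in the annotation, which their probes may not tell apart, so the values of these 6 are uncertain for a single gene.

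Within a genotype the subunits tended to be high or low on the same arrays. Of the 595 pairs of subunits, 88.1% had a positive correlation of their deviations from the genotype means over the 8 arrays, with a median r of 0.45. The points share the arrays and their scaling, so this is a description. Ndufc2 was least like the others, with a mean r of -0.09, and Ndufb9 most like them, at 0.59.

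Cre array 3 stood lowest. On it 33 of the 35 subunits were below the Cre mean and 25 had the lowest value of the genotype. On Cre array 2 the count above the Cre mean was 33, and among CreTW arrays it ran from 9 on array 2 to 29 on array 1. The mean centred log2 level of all 35 was 0.05, -0.03, -0.03 and 0.03 on CreTW arrays 1 to 4, against 0.03, 0.07, -0.11 and -0.0034 on Cre arrays 1 to 4. All CreTW values lay within the range of the Cre values. Without Cre array 3 the median difference was -0.01, the opposite sign of that with all arrays. The median of all features was then -0.02, against -0.01 with all arrays.

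**Figure D3:**
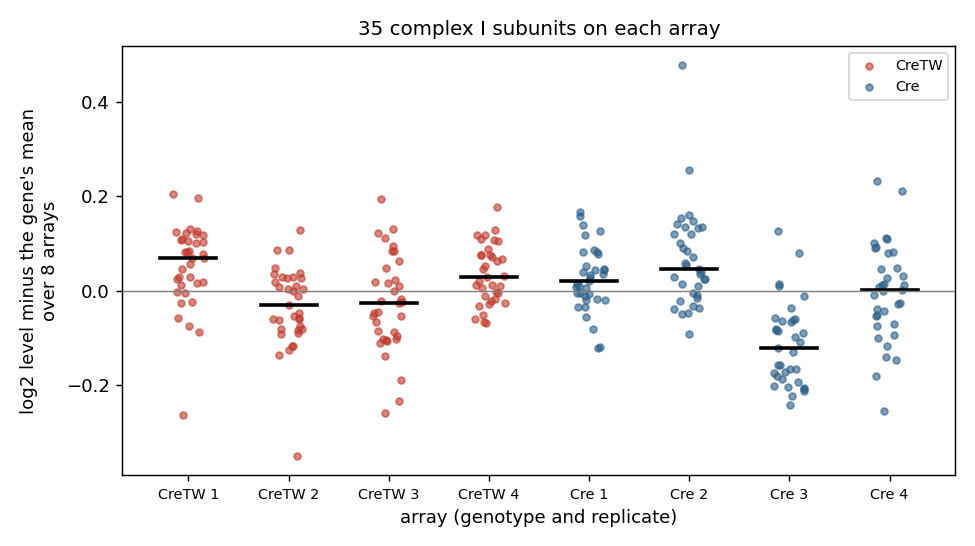
Level of each of 35 complex I subunits on each array, as log2 minus the gene's mean over all 8 arrays (points, CreTW in red and Cre in blue), with the median of the 35 as a black bar. Cre 3 sits lowest, with 33 of 35 subunits below the Cre mean.

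Cell type markers spanned a wider range over the arrays than the subunits. Skeletal muscle, a tissue rich in mitochondria, had positive differences for 20 of 20 markers, with a median of 3.26 and 0 called. Only 8 of the 20 were well above background on all Cre arrays, against 14 on all CreTW arrays. Some met the filter mainly through CreTW arrays, so the muscle count and median rest partly on Cre values near background. Acta1, the actin of skeletal muscle fibres, had levels of 0.37, 4.96, 4.17 and 3.43 in CreTW cartilage, against -1.45, -2.25, 1.35 and -0.80 in Cre cartilage, with overlapping genotypes. From the highest to the lowest muscle score, CreTW arrays 2, 3, 4 and 1 had complex I scores of -0.03, -0.03, 0.03 and 0.05, and Cre arrays 3, 1, 4 and 2 had -0.11, 0.03, -0.0034 and 0.07. When the muscle score entered the fit, 0 subunits were called and their median difference was 0.11, against 0.04 over all features. The score itself had a mean of 1.67 in CreTW and -1.67 in Cre cartilage, so this fit separates muscle from genotype poorly. Osteoclast markers had a median of -0.85, with 7 of 7 negative and 0 at an unadjusted limma p under 0.05. In slide row 1 the array scores were -0.62 and -1.45 in CreTW cartilage, against 0.70 and 0.88 in Cre cartilage. In row 2 they were 0.43 and -0.0030 in CreTW cartilage, against 0.66 and -0.59 in Cre cartilage. The genotypes thus overlapped in row 2 and not in row 1. Fibroblast and tendon markers had a median of 0.34, with 10 of 10 positive and 0 called. Of these, 4 had an unadjusted limma p under 0.05, against 10.7% of all features. The genotypes did not overlap for 3, all higher in CreTW, against 3.89% of all features. Markers of a list share the arrays and can vary together, so such counts are a description. Cre array 3 had the highest neutrophil and monocyte score of all arrays, 1.96. The part of these cell types in the subunits' values was not tested, and the muscle covariate cannot settle it because it follows the genotype.

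Other genes of the pathway, from lists of assembly factors, dehydrogenases, shuttles, enzymes that reduce ubiquinone and the relatives Ndufa4 and Ndufa4l2, gave 0 calls among 60 measured genes. The genotypes did not overlap for 4 of the 60 (6.67%), 1 higher and 3 lower in CreTW, against 6.70% of all features. Assembly factors, which build the complex and then leave it, had 0 of 22 called in either direction and a median of -0.03, with 8 positive and 14 negative. Their lowest p-values were those of Sfxn4, an inner membrane protein needed for complex I assembly, at 0.40 ± 0.19 (SE, 95% interval -0.03 to 0.84, limma adjusted p = 0.496), and of Aifm1, a flavoprotein that helps import subunits, at -0.14 ± 0.08 (SE, 95% interval -0.33 to 0.04, limma adjusted p = 0.563). The dehydrogenases that produce NADH in the matrix had 0 of 15 called and a median of -0.02, with Idh3b, a subunit of isocitrate dehydrogenase, at 0.20 and Glud1, glutamate dehydrogenase, at 0.17.

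Carriers and enzymes of the NADH shuttles had 0 of 10 called and a median of 0.05. Got1, the cytosolic aspartate aminotransferase of the malate-aspartate shuttle, had levels of 2.34, 2.27, 2.33 and 2.37 in CreTW cartilage, against 1.92, 2.15, 1.87 and 2.04 in Cre cartilage. CreTW values were all above the Cre values, with a difference of 0.33 ± 0.09 (SE, 95% interval 0.13 to 0.53, limma adjusted p = 0.238). Slc25a13, an aspartate-glutamate carrier of the same shuttle, was at -0.39 ± 0.12 (SE, 95% interval -0.66 to -0.12, limma adjusted p = 0.295), and its genotypes overlapped. Of 12 genes for other enzymes that pass electrons to ubiquinone, 0 were called, and Sdhd and Sqor were at -0.22 and -0.21.

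Ndufa4 and Ndufa4l2 bear the names of subunits. Ndufa4, known as a component of complex IV, was at 0.01 ± 0.09 (SE, 95% interval -0.18 to 0.21, limma adjusted p = 0.965). Ndufa4l2, known as a target of the hypoxia-inducible factor that lowers complex I activity in other cells, had levels of 4.27, 4.58, 3.59 and 4.48 in CreTW cartilage, against 4.89, 5.48, 4.77 and 5.82 in Cre cartilage. All CreTW values lay below all Cre values. The difference was -1.01 ± 0.29 (SE, 95% interval -1.67 to -0.35, limma adjusted p = 0.269), 0.497-fold, and did not pass the test.

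Of 39 measured nuclear genes listed for complexes II to V, 0 were called, against 0 of 35 for complex I. Their median difference was -0.02 and the range -0.22 to 0.08, against 0.02 and -0.39 to 0.18 for complex I. The list includes Cycs and Atpif1, which are not subunits of these complexes. Groups did not overlap for 2 of the 39 (5.13%) and for 4 of the 35, against 6.70% of all features. The 2 were the succinate dehydrogenase membrane subunits Sdhc and Sdhd, both lower in CreTW, which are also among the non-overlapping pathway genes counted above. The array scores of both lists had their lowest Cre value on array 3, -0.09 for complexes II to V and -0.11 for complex I. Differences were smaller than 0.2 in either direction for 38 of the 39, against 34 of the 35 for complex I. All genes of both lists had an SD below the median of all features. A difference between the lists was not tested.

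**Figure D4:**
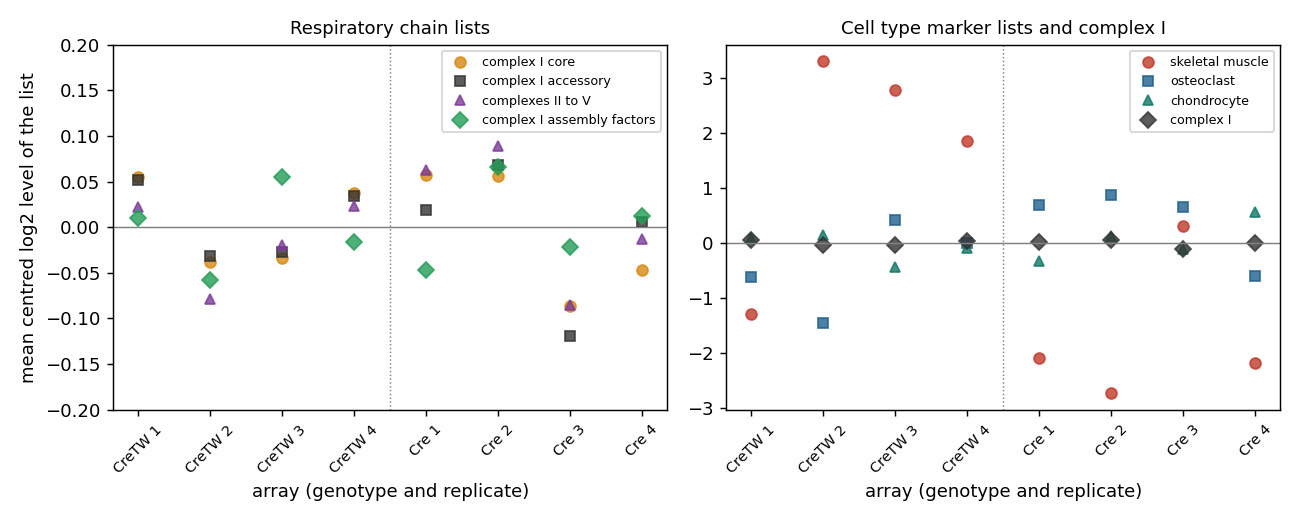
Mean centred log2 level of gene lists on each array, CreTW arrays left of the dotted line and Cre arrays right of it. The respiratory chain lists (left panel) stay within -0.12 and 0.09, whereas skeletal muscle markers (right panel) run from -2.73 to 3.31 and complex I stays near 0.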

How the data were processed

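Total RNA of growth plate cartilage was hybridised to 1-colour Agilent arrays. The deposited intensity values are background-subtracted processed signals that Agilent's Feature Extraction software (version 11.5.1.1) wrote, per the file headers. The deposited log2 value table, made by the authors with GeneSpring per the series' design text, equalled log2 processed intensity minus a constant per array: its column medians lay between -3.03 and -2.93, and the scaling used here differed from it by -0.0056 to -0.0030. It is not centred by gene, and no direction is involved, since each array holds 1 sample.

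Spots of a probe were averaged without outlier-flagged ones, and log2 was taken after dividing by the array's 75th percentile. A probe stayed in when 4 or more of the 8 arrays had it well above background. Probes were named by accession through RefSeq (GRCm38.p6, names and promoters only): 32994 of 56605 matched 1 symbol, 0 several and 23611 none. The brightest probe stood for a gene. Genotypes were compared with limma 3.58.1 (lmFit, eBayes, 6 residual degrees of freedom) in R 4.3.3, adjusted over 23105 features at 0.05, and tested on simulated data.

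The subunits, the module grouping, the gene lists and the alternatives were chosen with earlier results of these data known. Module borders vary between sources. A further core subunit is not reported here. By the naming rule, array values are given for core subunits, the 3 highest and 3 lowest accessory differences, and members with unadjusted p under 0.05 or non-overlapping groups. Named beside them, with or without array values, are the genes with the 2 lowest p-values of each other pathway list, Ndufa4 and Ndufa4l2. The rule also names the first 2 genes of each cell type list, and of these Col2a1, Acan and Acta1 are named. Each array holds a separate mouse per the labels, and p-values measure the spread between these mice. The number of arrays limits precision. Normexp was run on the median signal, the mean signal not being among the columns used here.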

Additional observations from a re-analysis of the deposited data

Results flagged for a closer look

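In 70 groups of 4 arrays (35 subunits in each genotype), a single array stood far from the other 3 in 3 groups, where chance gives about 1 in 20. Ndufa1 was 4.93 on CreTW array 3, against 4.73 to 4.74 on the other CreTW arrays, and Ndufa8 was 2.75 on the same array, against 2.58 to 2.61. Ndufab1 was 0.54 on Cre array 2, against 0.14 to 0.19 on the other Cre arrays. Without that array the Ndufab1 difference was -0.29 (limma adjusted p = 0.635, against a range of 0.175 to 0.999 over the 22 alternatives).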

How the results depend on the processing

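No subunit was called under any of the 22 alternatives to the main processing, and none of the 60 other pathway genes under the 11 run for them. The lowest adjusted p of a subunit in any alternative was 0.175, with array weights. The median difference of the 35 subunits was 0.11 when the muscle score entered the fit, and that of all features was 0.04. In that fit the N module was at 0.19, the Q module at 0.17 and the distal membrane module at 0.10. Within slide row 1 alone the median of the 35 was -0.02 and within row 2 alone 0.07, with the proximal membrane module at -0.058 and 0.092. Leaving out single arrays gave medians of -0.01 to 0.05 and core minus accessory differences of -0.02 to 0.0091. Without the 6 genes that have a copy, an alternative added after the data were seen, the median was 0.02. Of the 35 subunits, 17 kept their sign in all 22 alternatives, Ndufab1, Ndufb11, Ndufa6 and Ndufb9 among them, and 18 changed it in at least 1, all with no call. The causes were not tested.

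A pairing of the mice by replicate number was not seen: deviations of same-numbered arrays correlated at -0.01, -0.10, 0.31 and -0.03. Those of arrays with unlike numbers correlated at -0.50 to 0.40. With 4 arrays per genotype these values cannot decide whether mice were paired. With the replicate number as a block, 12 of all features were called against 80 without it, and 0 subunits (lowest adjusted p = 0.470). The median was 0.02 with the block. All features gave 27 calls with no filter on dim probes, 110 with normexp, 127 with array weights, 53 with the slide row as a block, 4 with the muscle covariate, 0 within each row (3164 and 1216 at an unadjusted p under 0.05) and 42 to 75 without single arrays (42 without CreTW replicate 4, 50 without Cre replicate 3 and 51 without Cre replicate 2). With 4 arrays per genotype, the precision is that of the intervals given for each subunit.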
